A study of Mus musculus with 6 samples.

Results

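Endothelial fatty acid uptake was described here through 10 genes, chosen by symbol, of the 55487 genes in the deposited expression matrix: Cd36, Fabp4, Fabp5, Gpihbp1, Lpl, Pparg, Meox2, Tcf15, Slc27a3 and Slc27a4. RNA was measured in kidney endothelial cells of 6 mice. The I-PpoI group had 3 mice whose genotype labels read VE-cadherin Cre together with ROSA26-STOP-I-PpoI, ROSA27-STOP-I-PpoI or ROSA28-STOP-I-PpoI, 1 label per mouse. The labels alone do not show whether the locus truly differed between these mice. In such animals Cre, driven by the promoter of an endothelial cadherin, is meant to remove a stop signal and switch on I-PpoI, a homing endonuclease that cuts DNA. The control group had 3 wild-type littermates, whose labels list no Cre, so Cre itself and I-PpoI cannot be told apart. From 8 weeks of age all 6 mice ate a fat-rich diet (60% of calories as fat) for 4 weeks, and no chow-fed group was analysed here. Cells came from collagenase-digested whole kidneys by magnetic sorting with an antibody to CD31 (Pecam1). The comparison asks whether DNA damage aimed at the endothelium goes with a difference in these genes under dietary fat load.

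Fatty acids reach tissue cells across the capillary wall. Lipoprotein lipase splits triglycerides of circulating lipoproteins, GPIHBP1 holds the lipase on the capillary surface, and CD36 and the fatty acid transport proteins take the released fatty acids into the endothelial cell. Cytosolic fatty acid binding proteins carry them onward. The nuclear receptor PPARG drives several of these genes, and in heart endothelium of mice the transcription factors MEOX2 and TCF15 act together on Cd36 and Lpl.

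Promoter sequences are shown for the fatty acid receptor and the pair of transport proteins, because these are the receptor and transport members whose regulatory sequence was at hand. RefSeq entries on GRCm38.p6 matched 5 of the 10 members by symbol (7 entries, 3 of them for Pparg). Each run is the 250 bases before the start that RefSeq gives, 5′ to 3′ on the gene's strand, with 2 motifs in capitals wherever they occur on either strand, so that a reverse complement is capitalised too. The first is the hexamer AGGTCA that many nuclear receptors recognise. The second is the GC box, the Sp1-type promoter element with the letters GGGCGG. No capitalised stretch overlaps another.
Cd36, chr5:17835897-17836146, minus strand: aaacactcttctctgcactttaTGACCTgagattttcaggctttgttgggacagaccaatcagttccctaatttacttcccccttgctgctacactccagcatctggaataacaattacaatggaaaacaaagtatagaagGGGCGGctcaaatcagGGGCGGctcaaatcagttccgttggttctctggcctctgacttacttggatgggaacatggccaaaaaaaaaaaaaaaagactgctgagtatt
Slc27a3, chr3:90389939-90390188, minus strand: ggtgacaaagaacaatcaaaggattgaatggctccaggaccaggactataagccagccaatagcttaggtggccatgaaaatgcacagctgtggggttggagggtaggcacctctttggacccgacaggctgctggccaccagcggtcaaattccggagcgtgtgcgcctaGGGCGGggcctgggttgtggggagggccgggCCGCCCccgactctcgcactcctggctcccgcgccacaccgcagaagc
Slc27a4, chr2:29802384-29802633, plus strand: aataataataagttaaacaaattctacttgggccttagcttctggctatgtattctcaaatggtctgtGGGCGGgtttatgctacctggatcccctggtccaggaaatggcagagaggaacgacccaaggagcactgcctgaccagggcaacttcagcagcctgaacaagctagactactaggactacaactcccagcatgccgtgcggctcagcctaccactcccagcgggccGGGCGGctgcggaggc
The Cd36 entry lies inside the gene's GENCODE span, not at its 5′ end, and is the only entry of the 7 whose bases after the start were found in no GENCODE transcript. The hexamer lay in 3 of the 7 member entries, those of Cd36 and of 2 Pparg starts, and in 14.0% of 32851 RefSeq promoters of the same length. The GC box lay in 6 of the 7 entries and in 32.7% of all promoters. The full direct repeat bound by PPAR receptors, with 1 base between its hexamers, lay in 0 of the 7 entries and in 0.0335% of all promoters. These matches describe letters only and are no evidence of binding.

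The libraries stood apart in ways that touch every value below. Whole fragments recovered from the deposited FPKM values came to 1590957, 834149 and 13324303 in I-PpoI mice 1, 2 and 3, and to between 14081222 and 16954480 in control mice. Mitochondrial genes took 6.42%, 38.2% and 48.2% of these in the I-PpoI mice and 8.83% to 18.3% in the controls. In I-PpoI mice 1 and 2, 68.2% and 70.6% of mitochondrial fragments lay on minus-strand genes, while the share was 0.0821% for I-PpoI mouse 3 and 0.0473% to 0.0664% for control mice. Antisense genes took 14.7% and 10.02% of fragments in I-PpoI mice 1 and 2, but 0.119% of those of I-PpoI mouse 3 and between 0.197% and 0.225% of those of control mice. The library kit and strand setting are not known here, so whether fragments of these 2 libraries were counted on the strand opposite to the RNA was not tested. This doubt touches every member value in those 2 mice. Of the members, 8 lie more than 5 kb from any opposite-strand gene, measured from their exons; Pparg and Meox2 have a predicted gene there, Gm44079 and Gm29007, each with 0 fragments in every library. Y-linked Ddx3y was counted 20, 0 and 0 times in I-PpoI mice 1, 2 and 3 and 959 to 1672 times in control mice. Xist, an RNA of female cells, was counted 0, 70 and 4739 times in these I-PpoI mice and 4, 0 and 0 times in control mice 1, 2 and 3. By these counts sex and genotype were not balanced, and I-PpoI mouse 3 alone against the controls is also a comparison between sexes. All 24 endothelial identity genes were detected, with a summed level of 1177 to 3009 FPKM in I-PpoI mice and 4079 to 4536 FPKM in control mice. FPKM is a fragment count divided by gene length and by library size.

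In I-PpoI mice the deposited level of each of the 9 measurable members averaged below that in control mice (9 of 9 below 0 on the log2 scale, against 71.6% of all genes), by the most for Cd36, Gpihbp1 and Slc27a3, but no member passed the test. Limma on log2(FPKM + 1), with p-values adjusted over all 14962 genes tested, called 0 of 9 members and 0.0% of all genes. Limma-voom on the recovered fragments also called 0 members. At an unadjusted p under 0.05, 5 of 9 members were lower by limma, against 32.5% of all genes, and 0 of 9 were lower by limma-voom, against 1.04% of all genes. The 3 I-PpoI values lay below all 3 control values for 7 of 9 members, against 45.1% of all genes tested. The median log2 fold change was -1.29 over the 9 members and -0.65 over all genes tested. The whole matrix was thus shifted as well, and the part of this shift in the members' differences was not tested. In bulk RNA, fewer endothelial cells and less RNA per cell cannot be told apart. Beside this, the summed endothelial identity list was lower in I-PpoI mice as well, with 24 of 24 genes below 0 and a median log2 fold change of -1.37.

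**Figure D1:**
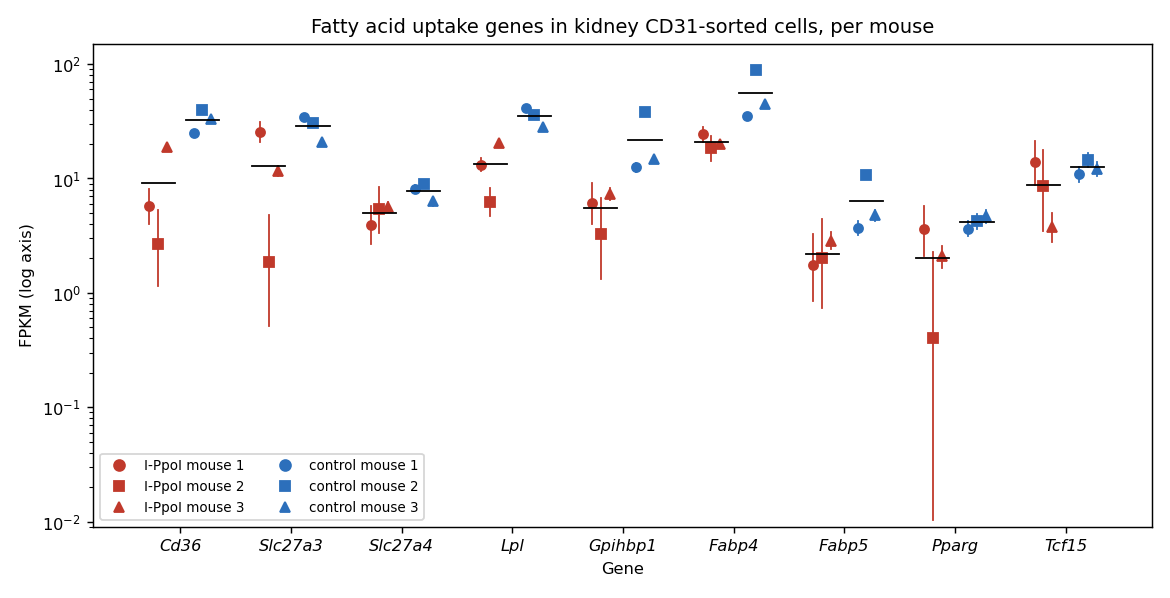
FPKM of 9 fatty acid uptake genes in each mouse, on a log axis, with I-PpoI mice in red left of control mice in blue. Vertical lines are 95% exact Poisson intervals of the recovered fragments (counting error only) and black bars are group means; Meox2, with 0 or near 0 fragments, is left out. I-PpoI mouse 2 was the lowest of its group for 6 of the 9 genes, and control mouse 2 was the highest of its group for 6.

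Cd36 encodes the scavenger receptor that takes up long-chain fatty acids (ENSMUSG00000002944, GRCm38 chromosome 5, 17781690 to 17888801). Its level was 5.73, 2.66 and 18.8 FPKM in I-PpoI mice 1, 2 and 3, against 24.8, 40.1 and 33.1 FPKM in control mice 1, 2 and 3. The I-PpoI values were all below the controls, and I-PpoI mouse 3 stood well above the other two of its group. On the log2 scale the difference was -2.07 (SE 0.63; limma adjusted p = 0.124), and 1.26% of all tested genes had a lower fold change. Few fragments stand behind 2 of the I-PpoI values: 33 in mouse 1 and 8 in mouse 2, with 900 in mouse 3 and 1436 to 2025 in the controls. The 95% exact Poisson interval of the level was 1.15 to 5.26 FPKM in I-PpoI mouse 2 and 17.6 to 20.1 FPKM in I-PpoI mouse 3, and covers counting error only.

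The transport proteins Slc27a3 and Slc27a4 are membrane proteins that couple fatty acid uptake to acyl-CoA synthesis. Slc27a3 (ENSMUSG00000027932, chromosome 3, 90385239 to 90389938) had 25.5, 1.86 and 11.6 FPKM in I-PpoI mice 1, 2 and 3, against 34.7, 30.3 and 20.9 FPKM in the controls. The groups overlapped, since I-PpoI mouse 1 lay above control mouse 3. Its log2 fold change was -1.56 (SE 0.80; limma adjusted p = 0.164), and the value of I-PpoI mouse 2 rests on 4 fragments. For Slc27a4 (ENSMUSG00000059316, chromosome 2, 29802634 to 29817522) the I-PpoI mice had 3.96, 5.41 and 5.65 FPKM, against 8.16, 9.02 and 6.34 FPKM in control mice. The I-PpoI values were below all controls, with a small gap between I-PpoI mouse 3 and control mouse 3. Of the 9 members it had the log2 fold change nearest to 0, at -0.56 (SE 0.30; limma adjusted p = 0.172).

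Lpl and Gpihbp1 form the lipolytic step. Lpl, lipoprotein lipase (ENSMUSG00000015568, chromosome 8, 68880491 to 68907448), measured 13.1, 6.26 and 20.5 FPKM in I-PpoI mice 1, 2 and 3, against 41.4, 35.6 and 28.0 FPKM in the controls. No I-PpoI value reached a control value, and the difference was -1.45 on the log2 scale (SE 0.46; limma adjusted p = 0.124). It had the most fragments of any member, 3139 over the I-PpoI group and 17243 over the controls. Gpihbp1, its anchor on capillary endothelium (ENSMUSG00000022579, chromosome 15, 75596628 to 75599481), was at 6.10, 3.27 and 7.35 FPKM in I-PpoI mice, against 12.6, 38.0 and 14.7 FPKM in control mice. Again all I-PpoI values were below the controls, and control mouse 2 was far above the other controls. The log2 fold change was -1.68 (SE 0.51; limma adjusted p = 0.124), with 25, 7 and 250 fragments in I-PpoI mice 1, 2 and 3.

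Fabp4 and Fabp5 are the cytosolic carriers, best known from adipocytes and macrophages and from skin; both are also made by capillary endothelium. Fabp4 (ENSMUSG00000062515, chromosome 3, 10204088 to 10208576) had 24.3, 18.3 and 19.96 FPKM in I-PpoI mice 1, 2 and 3, against 34.9, 89.7 and 44.8 FPKM in control mice. The I-PpoI mice were close to each other and below every control, and control mouse 2 was the highest. Its log2 fold change was -1.29 (SE 0.42; limma adjusted p = 0.124). Fabp5 (ENSMUSG00000027533, chromosome 3, 10012548 to 10016607) had 1.75, 2.01 and 2.86 FPKM in I-PpoI mice, against 3.70, 10.7 and 4.75 FPKM in control mice, the same order of libraries among the controls. The difference was -1.10 (SE 0.42; limma adjusted p = 0.131), with 10 and 6 fragments in I-PpoI mice 1 and 2.

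The regulators were Pparg, Tcf15 and Meox2. Pparg, the lipid-sensing nuclear receptor (ENSMUSG00000000440, chromosome 6, 115360951 to 115490399), measured 3.59, 0.404 and 2.08 FPKM in I-PpoI mice 1, 2 and 3, against 3.65, 4.24 and 4.68 FPKM in the controls. I-PpoI mouse 1 was within counting error of control mouse 1, and the value of I-PpoI mouse 2 is a lone fragment, with a 95% exact Poisson interval of 0.0103 to 2.26 FPKM. Its log2 fold change was -0.93 (SE 0.48; limma adjusted p = 0.167). Tcf15, a basic helix-loop-helix factor (ENSMUSG00000068079, chromosome 2, 152143561 to 152149097), was at 14.0, 8.53 and 3.75 FPKM in I-PpoI mice, against 10.9, 14.5 and 12.1 FPKM in control mice. Here the groups overlapped, and I-PpoI mouse 3, the deepest library of its group, was the lowest. The log2 fold change was -0.61 (SE 0.46; limma adjusted p = 0.310).

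Meox2, the homeobox partner of Tcf15 in mouse heart endothelium (ENSMUSG00000036144, chromosome 12, 37108540 to 37179534), was nearly absent from these libraries and was not tested, since its mean was under 1 FPKM. It had 0, 0 and 1 fragments in I-PpoI mice 1, 2 and 3, against 5, 2 and 4 fragments in control mice. A count of 0 allows 3 fragments, or 0.799 FPKM in I-PpoI mouse 1 and 1.52 FPKM in I-PpoI mouse 2, while the controls stood at 0.0602 to 0.131 FPKM. A difference in Meox2 was therefore not detectable at the depth of I-PpoI mice 1 and 2. In I-PpoI mouse 3, 3 fragments would be 0.0954 FPKM, inside the range of the controls, and 1 fragment was counted.

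The order of the members depends on the length used. The deposited values divide by all annotated exon sequence, which for Fabp4 is its whole span of 4489 bases and for Lpl is 10478 bases, while their annotated principal transcripts have 896 and 4115 bases. With FPKM recomputed on the principal transcript, Fabp4 averaged 105 ± 15.4 in I-PpoI mice and 283 ± 146 in control mice (SD, n = 3 each). On that scale the control order was Fabp4, Lpl, Gpihbp1, Cd36, Slc27a3, Fabp5, Tcf15, Slc27a4, Pparg and Meox2. Control values overlapped between all neighbours in this order except Fabp4 and Lpl, Tcf15 and Slc27a4, and Pparg and Meox2. By the deposited FPKM, Fabp5 was the 8th and Gpihbp1 the 5th of the 10 in controls, against 6th and 3rd on the principal transcript. Whether reads covered the other exons was not tested.

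Among the controls, Gpihbp1, Fabp5 and Fabp4 varied together. In control mouse 2 they stood at 2.78, 2.53 and 2.25 times the mean of the other controls, while Cd36 stood at 1.39, Tcf15 at 1.26, Lpl at 1.02 and Pparg at 1.02 times. A value of at least 2 times was seen in 6.82% of all tested genes, and the median gene was at 0.972 times. The summed level of 10 capillary endothelial markers was also highest in control mouse 2, at 2161 FPKM against 1660 and 1772 FPKM in control mice 1 and 3. The summed level of arterial markers was lowest there, at 921 FPKM against 1281 and 973 FPKM. Neither list moved as 1. Sema3g alone was at 211 FPKM in control mouse 2, against 455 and 305 FPKM in control mice 1 and 3. Efnb2, Fbln5, Cxcl12, Bmx and Jag1 were also lowest in control mouse 2, while Gja4, Hey1 and Dll4 were highest. Of the capillary markers, Plpp1 alone was at 786 FPKM there, against 509 and 534 FPKM. Emcn, Kdr, Rgcc, Car4 and Plpp3 were also highest, while Ehd3 and Npr3 were lowest. The part of vessel type in the members' spread was not tested.

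Ratios of members within a library do not depend on how libraries are scaled. Cd36 to Fabp4 was 0.236, 0.145 and 0.943 in I-PpoI mice 1, 2 and 3, against 0.710, 0.447 and 0.739 in control mice (two-sided exact permutation p = 0.40). I-PpoI mice 1 and 2 lay below the controls and I-PpoI mouse 3 above them. Lpl to Gpihbp1, the enzyme over its anchor, was 2.14, 1.92 and 2.79 in I-PpoI mice, against 3.30, 0.938 and 1.90 in control mice (exact permutation p = 0.70). Fabp4 to Fabp5 was 13.9, 9.14 and 6.98 in I-PpoI mice, against 9.44, 8.38 and 9.43 in control mice (exact permutation p = 0.90). Slc27a3 to Slc27a4 ranged from 0.343 to 6.44 in I-PpoI mice and from 3.30 to 4.25 in control mice (exact permutation p = 0.50), and Fabp4 to Gpihbp1 from 2.72 to 5.61 in I-PpoI mice and from 2.36 to 3.04 in control mice (exact permutation p = 0.30). None of these 5 ratios separated the groups, and the smallest p that 3 against 3 allows is 0.10.

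Scaling decided how much lower the members were in I-PpoI mice. With mitochondrial fragments left out of the library size, 0 of 9 members had groups that did not overlap, against 14.5% of all genes lower and 5.81% higher. I-PpoI mouse 3 then lay within the control range for 6 of 9 members, below it for 2 and above it for 1, whereas as deposited it lay below the controls for all 9. For Cd36 these values were 6.12, 4.31 and 36.3 in I-PpoI mice 1, 2 and 3, against 27.2, 47.2 and 40.5 in control mice. With median-of-ratios scaling from strand-clear genes (coding genes with no opposite-strand neighbour), 0 of 9 members had groups that did not overlap, against 6.03% of all genes lower and 9.65% higher. The median log2 fold change over all tested genes was then 0.26, and that of the members was -0.21. Cd36 was at -1.03 (SE 0.50; limma adjusted p = 0.329), Gpihbp1 at -0.65, Slc27a3 at -0.53, Lpl at -0.36, Fabp5 at -0.21, Pparg at -0.18 and Fabp4 at -0.16, while Slc27a4 and Tcf15 were at 0.45 each.

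**Figure D2:**
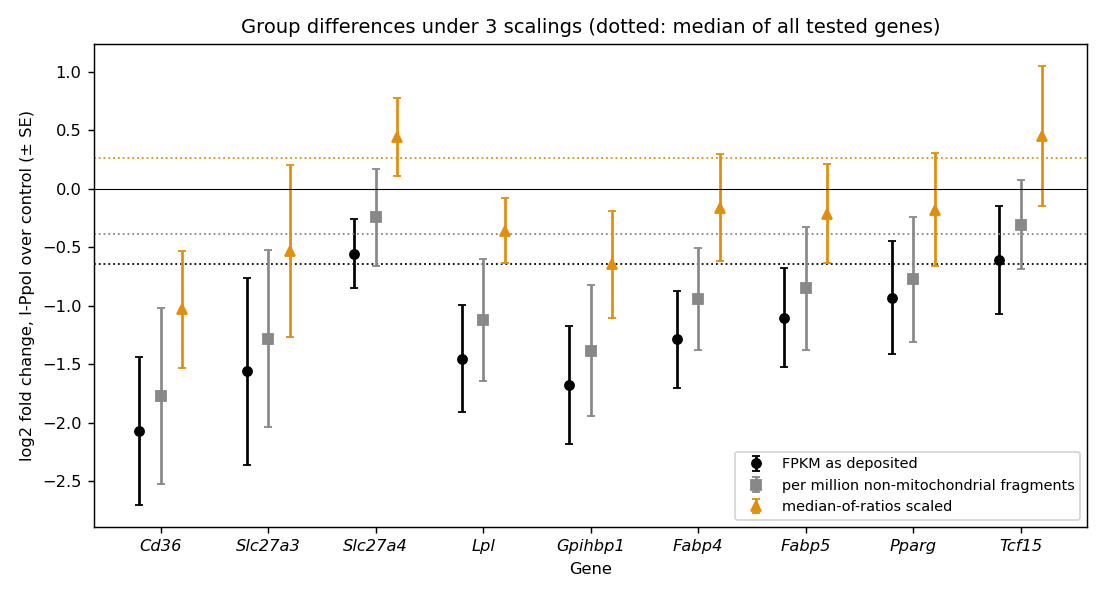
Log2 fold change of I-PpoI over control with its standard error for 9 genes under 3 scalings, with the median of all tested genes dotted for each. Cd36 was the lowest under every scaling shown, and Slc27a4 and Tcf15 were the highest. Limma-voom on the recovered fragments, not drawn, gave another order. There Gpihbp1 (-0.75) and Tcf15 (-0.67) were below Cd36 (-0.60), and Slc27a4 (0.17) was the highest. Cd36 is at -2.07 as deposited and at -1.03 scaled from strand-clear genes, and Tcf15 at -0.61 and 0.45.

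Single libraries also decided the calls. Without I-PpoI mouse 3, limma called 4 of 9 members lower (Cd36, Fabp5, Gpihbp1 and Lpl), against 36.8% of all genes called lower. With weights fitted to each library, Cd36 and Lpl were called lower, against 27.0% of all genes. With I-PpoI mouse 3 as the lone I-PpoI library, whose spread is then taken from the controls, 0 of 9 members and 0.147% of all genes passed. Tcf15 was then at -1.50 and Cd36 at -0.74 on the log2 scale (limma adjusted p = 0.174 and 0.239).

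Members were also set against endothelial genes of the same library. Each member's log2(FPKM + 1) was set against the median of 24 endothelial identity genes, which averaged 5.62 in I-PpoI mice and 7.23 in control mice, a shift of -1.62 that this scale takes off every gene. Of 9 members, 2 were below 0 and 7 above 0, while 93.9% of all tested genes were above 0, so the count says nothing particular to the members. Cd36 differed by -0.45, with -3.40, -2.70 and -1.82 in I-PpoI mice 1, 2 and 3, against -2.66, -1.77 and -2.13 in control mice (two-sided exact permutation p = 0.40). Gpihbp1 differed by -0.06 (exact permutation p = 0.90) and Lpl by 0.16 (exact permutation p = 0.50). Fabp4 was at 0.33, Fabp5 at 0.51 and Slc27a3 at 0.05, each with overlapping groups. Slc27a4 differed by 1.06 (exact permutation p = 0.20) and Tcf15 by 1.01 (exact permutation p = 0.40), although Tcf15 in I-PpoI mouse 3, at -3.88, was below all controls. Pparg was the only member whose groups did not overlap, at 0.68 (exact permutation p = 0.10, the smallest possible), and 51.3% of all tested genes were likewise higher without overlap on this scale. With a pseudocount of 0.1 FPKM in place of 1, Pparg was at 0.22, and its level in I-PpoI mouse 2 rests on a lone fragment.

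**Figure D3:**
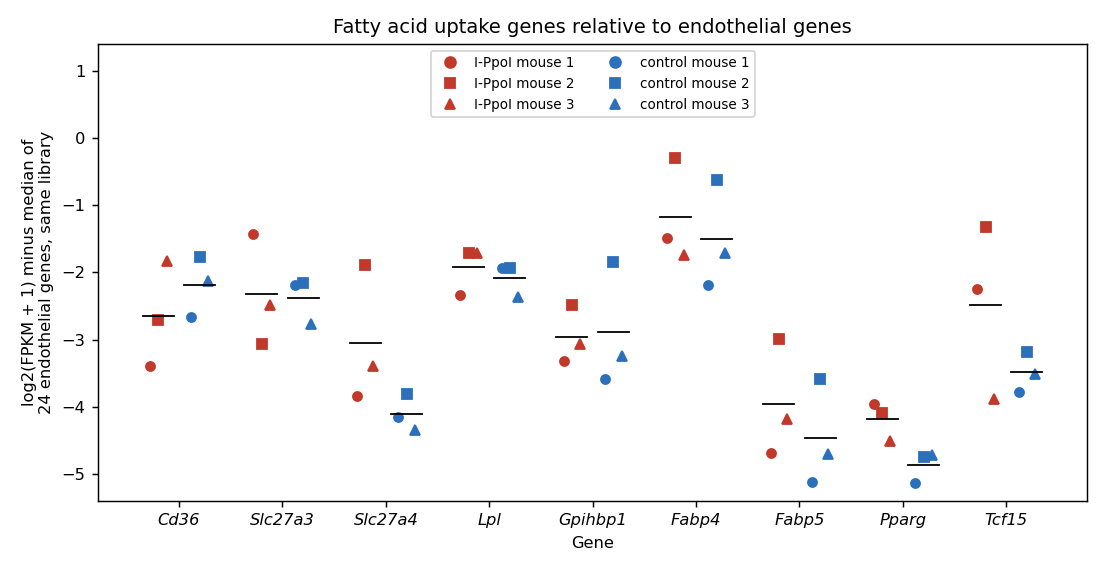
Log2(FPKM + 1) of 9 genes minus the median of 24 endothelial identity genes of the same library, in I-PpoI mice (red, left) and control mice (blue, right), with group means as black bars. The groups overlap for 8 of the 9 genes, and the I-PpoI values of Pparg lie above its controls.

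Other cell types that use these genes were checked by marker lists. Of 11 adipocyte markers, Adipoq, Plin1, Lep, Retn, Cidec and Slc36a2 had 0 fragments in every library, and the summed level was 3.56 to 4.91 FPKM in I-PpoI mice and 7.85 to 11.7 FPKM in control mice, nearly all from Thrsp. Macrophage markers summed to 321 to 867 FPKM in I-PpoI mice and 185 to 898 FPKM in control mice, with all 14 detected. Proximal tubule markers summed to 403, 1191 and 2303 FPKM in I-PpoI mice 1, 2 and 3, against 936 to 1711 FPKM in control mice, with all 16 detected. Most of each control sum came from Aqp1 (407, 447 and 604 FPKM in control mice 1, 2 and 3) and Kap (134, 755 and 165 FPKM). As deposited, 13 of the 16 were above 0 on the log2 scale, with a list median of 0.68. The 3 below 0 were Aqp1, Kap and Slc5a12. Over all tested genes, 71.6% were below 0. The part of macrophage and tubule RNA in the members' values was not tested.

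The wider pathway was read from 6 lists, and by limma 0 genes of any list passed in either direction. Over all tested genes 71.6% were below 0, with a median log2 fold change of -0.65, and with scaling from strand-clear genes 36.2% were below 0, with a median of 0.26. Of other transport and binding genes, 6 of 8 tested were below 0, with a median log2 fold change of -0.73, and scaled 1 of 8 was below 0, with a median of 0.35. Cav1, the coat protein of caveolae, averaged 25.9 ± 14.9 FPKM in I-PpoI mice and 98.9 ± 6.75 FPKM in control mice (SD, n = 3 each). Cavin1, its cytosolic partner, averaged 122 ± 53.2 FPKM in I-PpoI mice and 216 ± 55.6 FPKM in control mice, and the acyl-CoA binding protein Dbi 18.5 ± 11.9 FPKM in I-PpoI mice and 37.8 ± 15.7 FPKM in control mice. Slc27a2, the transport protein typical of proximal tubule, measured 2.82, 26.7 and 71.2 FPKM in I-PpoI mice 1, 2 and 3. In control mice it measured 10.7, 15.7 and 8.57 FPKM. Among the I-PpoI libraries this was the order of the summed tubule markers, but not of every single marker. Lrp2 had this order (0.784, 14.3 and 66.5 FPKM), while Slc5a2 ran the other way (62.0, 55.6 and 36.4 FPKM).

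In the lipase system, 9 of 10 tested genes were below 0, with a median log2 fold change of -0.63, and scaled 5 of 10 were below 0, with a median of 0.08. Lmf2, a lipase maturation factor relative, averaged 15.1 ± 7.72 FPKM in I-PpoI mice and 32.4 ± 2.39 FPKM in control mice. Sel1l, which is needed for the lipase to leave the endoplasmic reticulum, averaged 5.67 ± 4.18 FPKM in I-PpoI mice and 18.2 ± 3.38 FPKM in control mice. The protease Furin averaged 16.3 ± 6.21 FPKM in I-PpoI mice and 24.2 ± 3.18 FPKM in control mice, and the lipoprotein receptor Scarb1 5.10 ± 0.835 FPKM in I-PpoI mice and 12.5 ± 0.482 FPKM in control mice. Angptl8, named after its values were seen, was the single gene above 0 and measured 24.5, 15.2 and 0.347 FPKM in I-PpoI mice 1, 2 and 3, against 0, 0.329 and 0.136 FPKM in control mice. Dock6 lies within 5 kb of its exons on the opposite strand, and Angptl8 stood high in the 2 libraries with many minus-strand mitochondrial fragments, whose part in this value was not tested.

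The growth factor VEGF-B and its receptors raise fatty acid transport in mouse endothelium. The list held Vegfb, Flt1 and Nrp1, with Nrp2 added as a relative of Nrp1. All 4 genes were below 0 as deposited, with a median of -1.13, and scaled 2 of 4 were below 0, with a median of -0.12. Flt1 averaged 22.2 ± 10.8 FPKM in I-PpoI mice and 57.7 ± 6.80 FPKM in control mice, and Nrp1 40.8 ± 21.0 FPKM in I-PpoI mice and 107 ± 5.65 FPKM in control mice (SD, n = 3 each). Nrp2 averaged 2.61 ± 0.576 FPKM in I-PpoI mice and 5.27 ± 1.09 FPKM in control mice. The ligand Vegfb was at 12.1 ± 3.79 FPKM in I-PpoI mice and 12.1 ± 1.82 FPKM in control mice, with a log2 fold change of -0.02.

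Of 14 tested PPAR and RXR regulators and targets, 12 were below 0 with a median of -0.73, and scaled 5 were below 0 with a median of 0.27. The target Cpt1a, which lets fatty acids into mitochondria, averaged 9.74 ± 2.93 FPKM in I-PpoI mice and 22.7 ± 4.37 FPKM in control mice. The mitochondrial carrier Ucp2 averaged 19.0 ± 6.17 FPKM in I-PpoI mice and 37.5 ± 3.72 FPKM in control mice. Of acyl-CoA synthesis genes, 6 of 7 were below 0 with a median of -0.25, and scaled 3 of 7 were below 0 with a median of 0.61. Acsl5 averaged 8.39 ± 5.54 FPKM in I-PpoI mice and 25.6 ± 0.611 FPKM in control mice and Acsl4 2.45 ± 2.59 FPKM in I-PpoI mice and 7.99 ± 1.48 FPKM in control mice, both ligases that activate fatty acids. The thioesterases Acot2 and Acot7 were at 4.62 ± 2.12 FPKM in I-PpoI mice and 5.41 ± 0.620 FPKM in control mice and 6.27 ± 0.749 FPKM in I-PpoI mice and 6.12 ± 1.34 FPKM in control mice.

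Triglyceride storage and lipolysis genes were below 0 for 10 of 14, with a median of -0.55, close to the values of all genes, and scaled for 4 of 14, with a median of 0.32. The lipase Pnpla2 averaged 24.8 ± 7.33 FPKM in I-PpoI mice and 41.6 ± 1.89 FPKM in control mice, and the monoglyceride lipase Mgll 19.95 ± 12.9 FPKM in I-PpoI mice and 43.1 ± 1.28 FPKM in control mice (SD, n = 3 each). Of the lipid droplet coats, Plin2 averaged 7.72 ± 2.87 FPKM in I-PpoI mice and 14.9 ± 3.39 FPKM in control mice and Plin3 11.0 ± 5.38 FPKM in I-PpoI mice and 11.0 ± 0.759 FPKM in control mice. Median-of-ratios scaling from strand-clear genes turned 12 of the 24 genes of highest level in these lists (up to 4 per list) to the other side of 0. Of those that stayed below 0, Cav1 was then at -0.91 (SE 0.26), Acsl4 at -0.80 (SE 0.46) and Sel1l at -0.73 (SE 0.39).

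**Figure D4:**
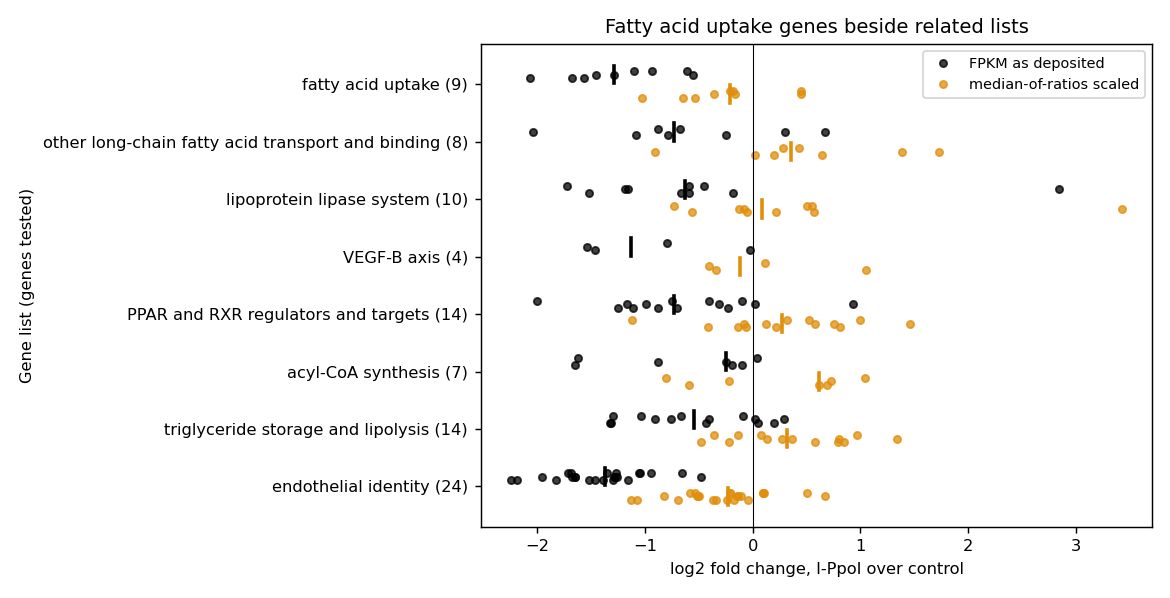
Log2 fold change of I-PpoI over control for each tested gene of the fatty acid uptake set, 6 related lists and the endothelial identity list, as deposited (black) and median-of-ratios scaled (orange), with list medians as bars. As deposited, the uptake genes (median -1.29) lie near the endothelial identity genes (median -1.37); scaled, the medians are -0.21 and -0.22.

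Likeness was measured as the root mean square difference of centred, scaled log2 values over the 6 libraries, among 6523 coding genes. Cd36 was nearest to Cetn3, Gimap4 and Vbp1 (0.11, 0.12 and 0.14, against a median of 0.94 over its candidates). Gpihbp1 was nearest to Gng11, Rps3 and Rps21 (0.15, 0.15 and 0.20). Among the nearest to Fabp4 were Rpl8 and Sertad1 (0.11 and 0.13), and the nearest to Fabp5 were Rack1, Psmb8 and Rpl9-ps6 (0.05, 0.09 and 0.09). Lpl was nearest to P3h1, Cnot9 and Ppid (0.07, 0.08 and 0.09), and Pparg to Il4ra, Mgll and Cnksr3 (0.07, 0.08 and 0.11). Tcf15 was nearest to S1pr4, Gadd45b and Ciao2b (0.12, 0.16 and 0.17) and Slc27a4 to Grina, Ap2a2 and Ift20 (0.08, 0.11 and 0.11). Slc27a3 had the least close neighbours, Galnt10, Mdp1 and Dynlt1b (0.27, 0.28 and 0.29). These distances share the libraries' depth and makeup and carry no p.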

How the data were processed

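Per the labels' protocols, total RNA of CD31-sorted kidney cells was read from both ends over 100 cycles. The authors deposited 1 FPKM value for each gene and mouse; the submitters' processing notes name DESeq2 and the builds mm10 and GRCm38. The sources used here name no aligner, counter or strand setting. FPKM times GENCODE M21 exon length gave whole fragments, within 0.05, for 98.5 to 98.6% of values under 1000 fragments.

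The members and lists were chosen with earlier results of these data known. Limma with a mean-variance trend was fitted to log2(FPKM + 1) of all 6 libraries where a gene averaged 1 FPKM or more, with Benjamini-Hochberg adjustment at 0.05. The pseudocount of 1 shrinks the fold changes of low genes. Labels describe separate mice. All 10 members were named, with up to 4 genes of highest mean per list; a few genes that this rule or the likeness measure picks are not reported here. The fit was tested on simulated data. Alternatives covered pseudocounts, filters, scalings, weights, limma-voom, the replicate block and left-out libraries. Same-numbered libraries correlated at 0.26, 0.20 and 0.19 over scaled strand-clear genes and at 0.09, 0.06 and -0.02 over all tested genes; the labels give no shared litter or day. Figures were drawn with matplotlib 3.10.9, exact tests used scipy 1.17.1, and fits used limma 3.58.1 in R 4.3.3. Tables were handled in pandas 2.3.3 and numpy 2.4.6 under python 3.11.15.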

Additional observations from a re-analysis of the deposited data

How the results depend on the processing

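Leaving mitochondrial fragments out of the library size, or fitting strand-clear genes alone, was added once the data had been seen. The count of 0 genes past the threshold became 6829 with library weights, 22 without I-PpoI mice 1 and 2 (52 with mitochondrial fragments also left out), 3 with the replicate block over strand-clear genes, and 0 to 8474 with 1 library left out. Members past the threshold were 2 with library weights and 0 to 4 with 1 library left out, and 0 under every other alternative run. The replicate block called 0 members over all genes and over strand-clear genes. The 7 members whose groups did not overlap became 0 with either median-of-ratios scaling, 0 over strand-clear genes only, 0 without mitochondrial fragments, and 3 (2 lower and 1 higher, against 23.7% of all genes lower and 23.9% higher) when I-PpoI mice 1 and 2 were also left out. They became 5 when rescaled to a common nuclear FPKM total (15.9% of all genes), 9 without I-PpoI mice 1 and 2 (70.7%), and 7 to 9 with 1 library left out (46.6% to 55.6%). Having no filter on low values let Meox2 in, although a difference in Meox2 was not detectable at the depth of I-PpoI mice 1 and 2. With no filter, 8 of 10 members, Meox2 among them, were lower without overlap (31.0% of all genes). At a mean of at least 5 FPKM it was 5 of 7 members (49.1%).

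Direction turned for a pair of members. Tcf15 was at 0.16 with median-of-ratios scaling over tested genes and at 0.45 with scaling from strand-clear genes, over strand-clear genes only, and there with the replicate block. Slc27a4 was at 0.18 and 0.45 under the same scalings, at 0.17 by limma-voom and at 0.25 without I-PpoI mice 1 and 2 and mitochondrial fragments. Relative to endothelial genes, members below 0 numbered 1 against strand-clear endothelial genes, 4 without I-PpoI mice 1 and 2, and 1 to 3 with 1 library left out. Gpihbp1 was at 0.11 against strand-clear endothelial genes and Slc27a3 at -0.11 with a pseudocount of 0.1 FPKM. Without I-PpoI mice 1 and 2, Cd36 was at 0.36, Fabp4 at -0.24, Tcf15 at -0.39 and Slc27a3 at -0.11. With 1 library left out, Gpihbp1 ranged from -0.41 to 0.46, Slc27a3 from -0.40 to 0.42 and Fabp4 from -0.11 to 0.77. The cause was not tested. Depth limits I-PpoI mouse 2 most, where Pparg, Slc27a3, Fabp5, Gpihbp1, Tcf15 and Cd36 had 1 to 8 fragments each.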
